A study of Mus musculus with 24 samples.

Results

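The 32 genes described here make, activate and esterify fatty acids in the mouse liver, and were chosen by name as the fatty acid and triglyceride synthesis set. All 32 symbols were found among the 46093 symbols of the female table and the 46093 of the male table. After a filter on low counts, 29 members were tested in females and 30 in males. The livers came from C57BL/6 mice, and liver RNA gave 24 libraries, with 3 in every one of 8 groups. In each sex the groups were Cyp2b-null mice fed a diet with 60% fat (high fat diet, HFD), Cyp2b-null mice on normal chow (ND), wild type (WT) mice on the HFD, and WT mice on ND, all for 10 weeks. Cyp2b-null mice lack Cyp2b genes, whose products are cytochrome P450 enzymes that oxidise drugs and lipids. The labels give the strain but neither the age nor the time of day at which livers were taken, and nothing in them ties the 3 libraries of a group to separate mice. The p-values therefore measure the spread between these libraries, which may be technical. The question of the design was how the liver transcriptome responds to fat feeding with and without Cyp2b enzymes.

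In hepatocytes, carbon from sugar leaves the mitochondrion as citrate, is split to acetyl-CoA in the cytosol, carboxylated to malonyl-CoA and condensed into palmitate at the expense of NADPH. The fatty acids are coupled to coenzyme A and then added stepwise to glycerol 3-phosphate, dephosphorylated to diacylglycerol and closed to triglyceride. The transcription factors Srebf1, which answers to insulin, and Mlxipl (ChREBP), which answers to glucose, are the best known activators of these genes, and liver lipogenesis as a whole is known to respond to feeding state.

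Library totals ran from 2005120 to 2661836 counts in females and from 8282510 to 20176050 in males, so genes of a few CPM carry more counting error in females. The members took 0.371 to 0.655% of the counts in females and 0.507 to 0.924% in males. Female livers were extracted with Trizol and male livers with an RNeasy kit, and the library kits differed too, so sex and chemistry cannot be told apart. The 7 hepatocyte markers summed to 62943 to 117089 CPM (counts per library scaled to one common total) in females and 41057 to 138164 in males. In 6 female libraries the genotype field contradicts the title, and the titles were followed. Cyp2b13 had 0 counts in all 6 female Cyp2b-null libraries, against 565 to 1138 counts in the 6 female WT libraries, and Cyp2b9 0 to 17, against 788 to 1245. In males the targeted genes did not settle the label: Cyp2b13 had 7 to 89 counts in the libraries labelled Cyp2b-null, against 23 to 85 in the WT libraries. Cyp2b9 went against the label on ND, with 24, 29 and 59 counts in labelled Cyp2b-null livers, against 1, 2 and 4 counts in WT livers. On the HFD it had 36, 85 and 19 counts in labelled Cyp2b-null livers, against 354, 48 and 797 counts in WT livers. Cyp2b10 followed the label on ND, with 4, 15 and 15 counts in labelled Cyp2b-null livers, against 97, 34 and 30 counts in WT livers. It overlapped on the HFD, with 7, 26 and 5 counts, against 7, 15 and 14 counts. The male groups are therefore called labelled Cyp2b-null. One male library, labelled Cyp2b-null ND 1, stood apart, with 32% of its counts on the 13 mitochondrial protein genes, against at most 7.76% in the other male libraries. The median of its rank correlations with other males was 0.80, against at least 0.965 for the rest. In females, WT ND library 1 stood apart less far, with 14% mitochondrial counts, against at most 8.54% in the other female libraries, and a median rank correlation of 0.883, against at least 0.915. The main results of the members in the comparisons within a table that hold either library are also given without it. The female minus male tests and the other genes of the pathway are given with both libraries kept.

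Levels are CPM, scaled by TMM factors within each table. Among the regulators, Thrsp and Mid1ip1, small proteins that favour lipogenesis, averaged 434 and 83.5 CPM over the 12 female libraries. Srebf1 averaged 269 CPM and Mlxipl 280 CPM there. In males the 12-library averages were 928 CPM for Thrsp, 78.8 CPM for Mid1ip1, 396 CPM for Srebf1 and 935 CPM for Mlxipl. Labelled Cyp2b-null ND library 1, which stood apart, was the highest male library for Mlxipl (2716 CPM) and Thrsp (1559 CPM), and raised both averages. The female and male tables were scaled separately and the chemistry goes with sex, so these levels are set side by side without a test.

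Per kilobase of exon, the highest of the 32 in females was Khk, the fructose kinase that feeds carbon to the pathway, with 234 CPM per kilobase, followed by Thrsp with 198 and Dgat2, the acyltransferase that closes triglyceride, with 162. In males the order began with Thrsp at 424 CPM per kilobase, Khk at 231, Mlxipl at 169 and Dgat2 at 165. The place of Mlxipl above Dgat2 rests on labelled Cyp2b-null ND library 1. That library was the highest for Mlxipl (2716 CPM) and the lowest for Dgat2 (301 CPM). Fatty acid synthase, Fasn (GRCm38, chr11:120805846-120824547, reverse strand), the enzyme that builds palmitate, stood at 49.2 CPM per kilobase in females and 81.3 in males. The pentose phosphate enzymes that regenerate NADPH were low, with 1.62 CPM per kilobase for G6pdx and 0.744 for Pgd in females, and 1.11 and 0.552 in males. Mogat1, a monoacylglycerol acyltransferase, reached at most 6 counts in a female library and 22 in a male one, and was tested in males alone. Slc25a1, the mitochondrial citrate carrier, was listed at 0 counts in all 12 female libraries, where 3 counts correspond to 1.13 to 1.5 CPM, and at 1 count at most in males. Olah, a thioesterase that releases medium chain fatty acids, had at most 1 count in any library. The annotation used for counting is not given in the sources used here, so a count of 0 for a symbol does not show that its transcript was absent. Neither was tested in any comparison.

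The other members lay between these bounds. In triglyceride assembly, the glycerol phosphate and lysophosphatidate acyltransferases Gpam, Agpat3 and Agpat2 averaged 168, 178 and 130 CPM over the female libraries, and 308, 197 and 172 CPM over the male ones. The phosphatidate phosphatases Lpin1 and Lpin3 averaged 68.2 and 4.1 CPM in females, and 136 and 7.83 CPM in males. Dgat1, the second enzyme that closes triglyceride, averaged 24.7 CPM in females and 27.0 CPM in males. Gpd1, which makes glycerol 3-phosphate, and the acyl-CoA synthetases Acsl5 and Acsl3 averaged 239, 323 and 41.0 CPM in females, and 393, 386 and 42.9 CPM in males. Mcat, the mitochondrial malonyl transferase, averaged 20.3 CPM in females and 17.2 CPM in males. Taldo1 and Tkt, grouped under NADPH supply though they do not themselves make NADPH, averaged 111 and 103 CPM in females, and 87.7 and 124 CPM in males. Among tested members with more than 3 counts in every library, the ratio of the highest to the lowest library was smallest for Tkt in females (1.43) and for Khk in males (1.90), and largest for Acss2 in females (8.36) and for Pnpla3 in males (13.2).

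The promoters of the members were read for the sequence bound by basic helix-loop-helix factors, since Srebf1, Mlxipl and the clock factors are of that class. RefSeq (GRCm38.p6) gave 37 transcription starts for 28 of the 32 members. Gpd1, Dgat1, Mcat and Dgat2 had no entry. The E-box CACGTG lay within the 250 bases upstream of 4 of the 37 starts, those of Lpin2, Khk, Mlxipl and Slc25a1, against 6.02% of all 32851 starts in that table. The sequence TCACNCCAC, searched on both strands as a form of the sterol element bound by Srebf1, was found upstream of 1 member start, a second start of Mlxipl, against 1.05% of all starts. The upstream bases of Lpin2, Khk and Mlxipl are shown because Lpin2 and Khk recur among the members with the smallest p-values below and Mlxipl encodes a factor of the pathway. Capitals mark the motif, all 4 stretches are on the forward strand, and all but the Khk stretch end at the base before the start. The Khk stretch is shortened because an annotated exon of another transcript overlaps it. A match describes letters in this window and does not show binding.
Lpin2, chr17:71183382-71183531: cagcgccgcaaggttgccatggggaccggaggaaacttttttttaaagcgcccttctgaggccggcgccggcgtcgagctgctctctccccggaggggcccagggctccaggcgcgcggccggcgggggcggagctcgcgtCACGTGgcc
Khk, chr5:30921476-30921505: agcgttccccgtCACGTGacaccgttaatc
Mlxipl, first start, chr5:135089740-135089889: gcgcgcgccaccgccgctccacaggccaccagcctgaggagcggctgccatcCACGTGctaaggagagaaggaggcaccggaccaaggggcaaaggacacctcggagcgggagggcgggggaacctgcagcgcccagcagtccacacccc
Mlxipl, second start, chr5:135106741-135106890: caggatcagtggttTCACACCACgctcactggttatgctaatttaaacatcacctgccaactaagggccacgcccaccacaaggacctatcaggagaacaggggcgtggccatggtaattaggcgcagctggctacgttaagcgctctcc

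Across genotype and diet, no member passed the test. In all 10 comparisons within the tables and all 4 tests of a female minus male effect, 0 members had an adjusted p below 0.05 in edgeR's quasi-likelihood test, which was fitted over all genes of a table. The lowest adjusted p of any member was 0.213. At an unadjusted p below 0.05 the members numbered 0 to 6 per comparison, and DESeq2 on the same genes called Me1 in 2 female comparisons and no member elsewhere. The whole tables gave few calls too, and their share stands beside each count below. Every value that follows is therefore a level or an interval, not a change that passed a test. The heat map of log2 levels shows how the members varied library by library.

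**Figure D1:**
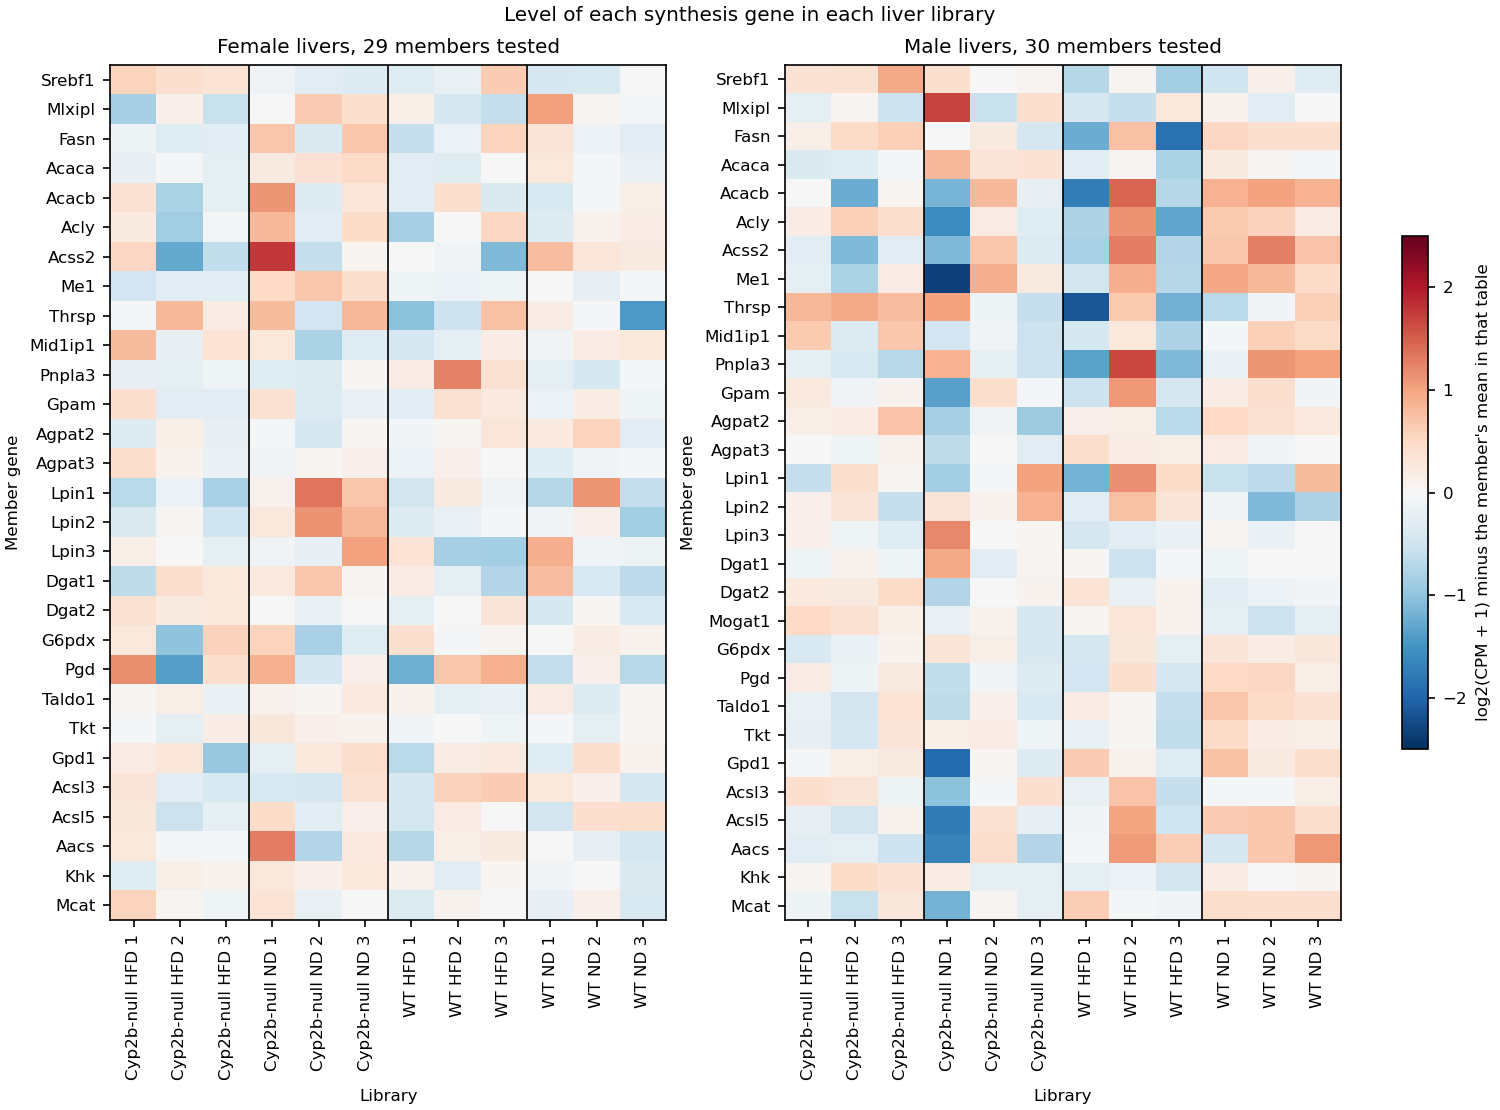
Each cell is log2(CPM + 1) of one member in one library minus that member's mean over the 12 libraries of its table, in females (left, 29 members tested) and males (right, 30 members tested), with columns from Cyp2b-null HFD to WT ND and black lines between groups. Male WT HFD library 2 is red and its 2 partners are blue for enzymes such as Fasn, at 1321 CPM against 339 and 220 CPM.

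In females on ND, the members leaned to higher levels without Cyp2b enzymes, and Me1 and Lpin2 were the members with the smallest p-values. Of 29 members tested, 23 had a higher and 6 a lower mean in Cyp2b-null ND than in WT ND livers. The median log2 difference was 0.23, beside -0.02 over all 11830 genes. With 1 library left out at a time, the median ran from 0.16 (without Cyp2b-null ND library 1) to 0.26 (without Cyp2b-null ND library 3). It was 0.25 without WT ND library 1, where Me1 differed by 0.67 and Lpin2 by 1.07 on the log2 scale. No member was called, where 0.127% of all genes were, and 2 members had an unadjusted p below 0.05. The libraries of the 2 groups did not overlap for 4 members, Me1, Lpin2, Tkt and Khk, all higher in Cyp2b-null livers. Over all genes 5.18% were apart with Cyp2b-null higher and 6.1% with Cyp2b-null lower, which was seen for 0 members.

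Me1, malic enzyme, which regenerates NADPH (chr9:86581371-86695953, reverse strand), had 166, 191 and 157 CPM in Cyp2b-null ND livers, against 119, 101 and 113 CPM in WT ND livers. All 3 Cyp2b-null libraries lay above all 3 WT libraries. The log2 difference was 0.62 ± 0.17 (SE), with a 95% interval of 0.26 to 0.99 and an adjusted p of 0.280 in edgeR. DESeq2 called Me1 here, with an adjusted p of 0.0251. It also called more genes over the table than edgeR, as given at the end.

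Lpin2, a lipin that dephosphorylates phosphatidate to diacylglycerol (chr17:71182560-71249817, forward strand), had 224, 409 and 335 CPM in Cyp2b-null ND livers, against 177, 204 and 102 CPM in WT ND livers. The lowest Cyp2b-null library lay just above the highest WT library. The log2 difference was 1.0 ± 0.27 (SE), interval 0.43 to 1.58, adjusted p 0.269, and it ran from 0.76 to 1.22 as each library was left out. Without a filter on low counts, Lpin2 was called, with an adjusted p of 0.00695. That fit also called more genes over the table, as given at the end.

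Khk had 501, 451 and 497 CPM in Cyp2b-null ND livers, against 398, 418 and 324 CPM in WT ND livers, a log2 difference of 0.35 ± 0.19 (SE). Tkt, transketolase of the pentose phosphate pathway, had 125, 113 and 109 CPM, against 98.6, 87.8 and 106 CPM. Acaca, the acetyl-CoA carboxylase that commits carbon to synthesis, had 96.8, 106 and 115 CPM in Cyp2b-null ND livers, against 99.1, 80.8 and 72.2 CPM in WT ND livers. Its lowest Cyp2b-null library thus lay below the highest WT library. The Acaca log2 difference was 0.34 ± 0.19 (SE), adjusted p 0.824. Fasn spread widely, with 831, 404 and 821 CPM in Cyp2b-null ND livers, against 641, 466 and 422 CPM in WT ND livers. The lowest value of all 6 libraries, 404 CPM, was a Cyp2b-null one, and the Fasn log2 difference was 0.43 (interval -0.22 to 1.08).

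By role, all 4 tested members grouped under acetyl-CoA supply (Acly, Acss2, Aacs and Khk) had the higher mean in female Cyp2b-null ND livers. So had all 4 tested members grouped under fatty acid synthesis (Fasn, Acaca, Acacb and Mcat). Both groups are broad, as Aacs and Khk do not themselves make acetyl-CoA, and only Fasn of the second group builds palmitate. Of the regulators 2 of 4 had the higher mean, and of NADPH supply 4 of 5. Acyl-CoA and glycerol supply had 1 of 3 higher, and triglyceride assembly 8 of 9. For Acss2 and Aacs the libraries of the Cyp2b-null ND group lay far apart. Acss2, which activates acetate, had 638, 122 and 195 CPM in Cyp2b-null ND livers, against 319, 231 and 218 CPM in WT ND livers. Aacs, which activates acetoacetate, had 144, 35.0 and 69.1 CPM, against 57.9, 50.4 and 42.8 CPM. In both, Cyp2b-null ND library 1 was the highest and library 2 the lowest of all 6. Acly had 356, 168 and 279 CPM in Cyp2b-null ND livers, against 162, 219 and 231 CPM in WT ND livers, Acacb 112, 41.3 and 64.3 CPM, against 39.8, 50.9 and 58.8 CPM, and Gpam 214, 130 and 147 CPM, against 150, 189 and 153 CPM. All 3 overlapped between the genotypes. In this comparison all 25 fatty acid oxidation genes and 22 of 23 cholesterol synthesis genes also had the higher mean. The clock genes were split, with 8 higher and 6 lower of 14 tested. Of these, 5 were apart higher and 4 apart lower, and 2 were called, both higher. The clock output gene Dbp stood at 187 to 234 CPM in Cyp2b-null ND livers, against 23.1 to 44.9 CPM in WT ND livers. The clock gene Arntl went the other way, with 1.35 to 2.61 CPM, against 7.41 to 18.96 CPM. The fasting-linked gene Igfbp1 had 242 to 653 CPM, against 56.0 to 166 CPM. Their part in the levels of the members was not tested.

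**Figure D2:**
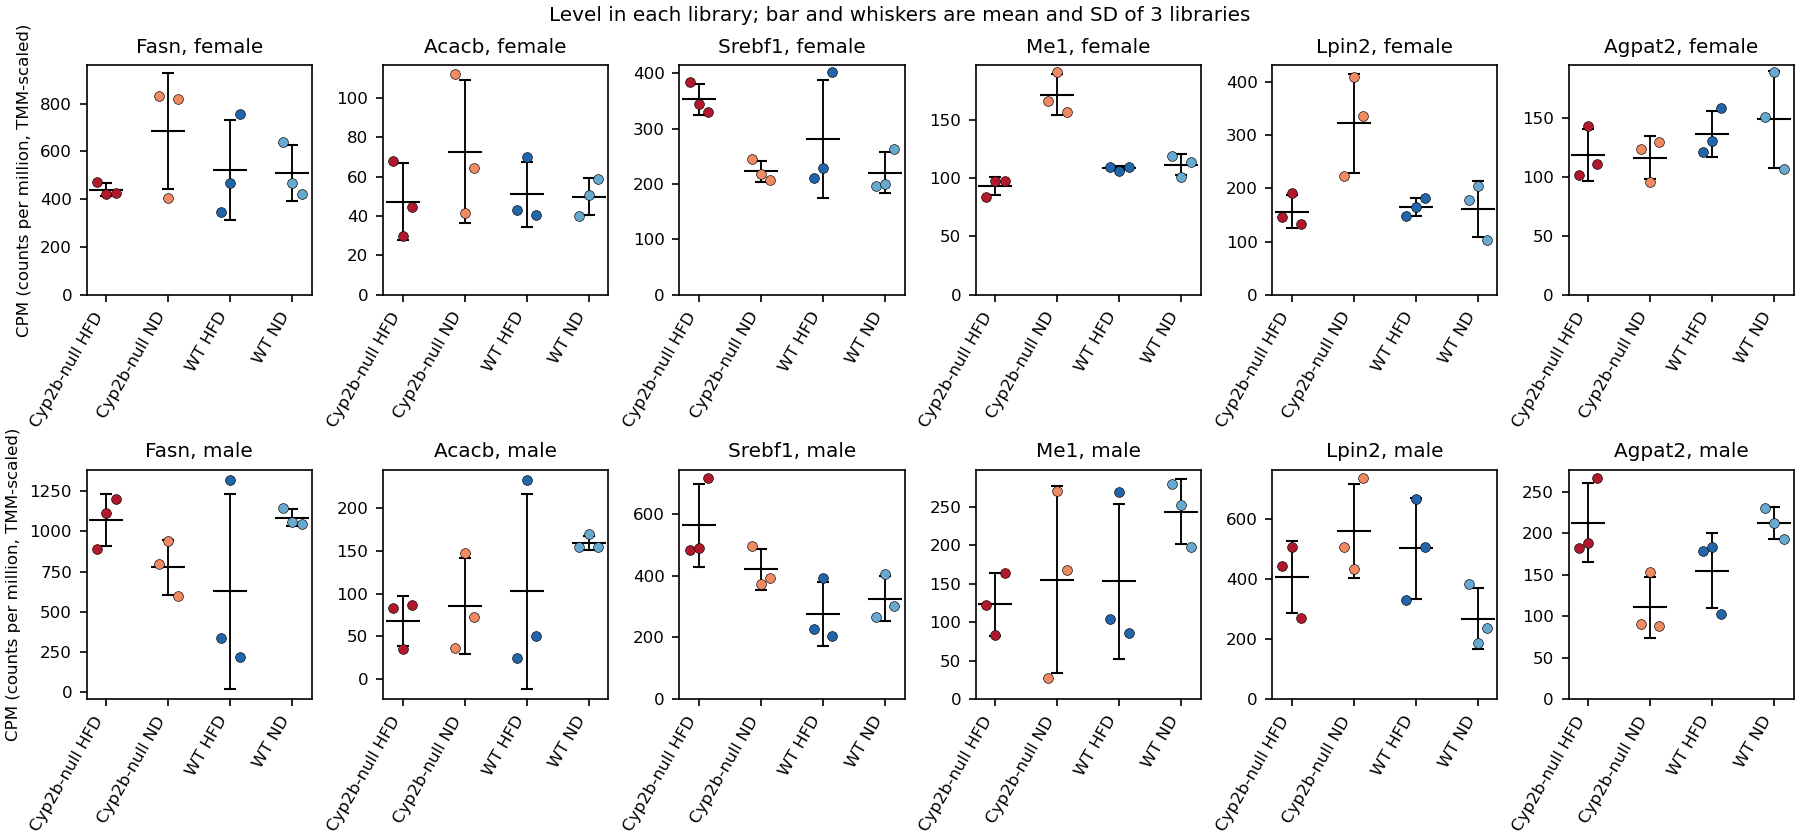
CPM of 6 members in each library (points), with the mean and SD of 3 libraries (bar and whiskers), for females (top) and males (bottom), in groups from Cyp2b-null HFD to WT ND. Female Me1 and Lpin2 stand highest in Cyp2b-null ND livers, and in males the WT HFD group is split by library 2 for Fasn, Acacb and Me1.

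On the HFD, the female members split about evenly between higher and lower means. Of 29 members, 15 had a higher and 14 a lower mean in Cyp2b-null HFD livers, with a median log2 difference of 0.02, beside -0.01 over all genes. Leaving out each library in turn gave medians from -0.03 (without Cyp2b-null HFD library 1) to 0.10 (without Cyp2b-null HFD library 2). None was called, where 0.0169% of genes were, and 1 had an unadjusted p below 0.05. No member was apart with Cyp2b-null higher (3.38% of genes), and 2 were apart with Cyp2b-null lower (3.59% of genes). Pnpla3, a lipase and acyltransferase of lipid droplets, had 7.04, 6.94 and 7.54 CPM in Cyp2b-null HFD livers, against 9.65, 20.8 and 11.1 CPM in WT HFD livers. The WT libraries all lay above, with library 2 far above the rest. The log2 difference was -0.94 ± 0.34 (SE), adjusted p 1.0, on at most 50 counts in a library. Me1 had 84.1, 97.6 and 97.7 CPM in Cyp2b-null HFD livers, against 109, 106 and 110 CPM in WT HFD livers, a log2 difference of -0.22 ± 0.17 (SE). Mid1ip1 (0.51 ± 0.29), Srebf1 (0.33 ± 0.23) and Acsl3 (-0.42 ± 0.32), a long-chain acyl-CoA synthetase, overlapped between the groups, as did Fasn, at -0.25 (interval -0.90 to 0.40). As each library was left out, Pnpla3 ran from -1.14 to -0.53, Mid1ip1 from 0.24 to 0.73, Srebf1 from 0.17 to 0.69 and Acsl3 from -0.68 to -0.23.

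Fat feeding gave different leanings in the 2 female genotypes. In WT females 16 members had a higher and 13 a lower mean on the HFD, with a median log2 difference of 0.03, beside 0.00 over all genes. As each library was left out, the median ran from -0.05 (without WT ND library 3) to 0.09 (without WT HFD library 1), and was 0.03 without WT ND library 1. None was called, where 0.0169% of genes were. One member, Pnpla3, was apart with HFD higher (3.89% of genes), and one, Acss2, with HFD lower (3.97% of genes). Pnpla3 had 9.65, 20.8 and 11.1 CPM in WT HFD livers, against 6.95, 5.99 and 7.98 CPM in WT ND livers, a log2 difference of 0.98 ± 0.34 (SE). Acss2 had 186, 176 and 85.7 CPM in WT HFD livers, against 319, 231 and 218 CPM in WT ND livers, a log2 difference of -0.78 ± 0.62 (SE). Mlxipl had 296, 197 and 173 CPM on the HFD, against 536, 273 and 257 CPM on ND, and WT ND library 1 was the high one. Its log2 difference was -0.68 ± 0.33 (SE), interval -1.37 to 0.02. Srebf1 (0.35 ± 0.24) and Dgat2 (0.28 ± 0.20) overlapped, and without WT HFD library 3 they stood at 0.0038 and 0.11. As each library was left out, Mlxipl ran from -0.95 to -0.26 (without WT ND library 1) and Pnpla3 from 0.57 to 1.18. The Fasn difference was 0.03 (interval -0.61 to 0.68), with a sign that turned when single libraries were left out. Beside these values, the 10 Kupffer cell markers all had the higher mean on the HFD (median 0.66), and summed to 353 to 641 CPM in WT HFD livers, against 208 to 417 CPM in WT ND livers. Of the 23 cholesterol genes, 20 had the lower mean on the HFD. Their part was not tested.

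In female Cyp2b-null mice, 11 members had a higher and 18 a lower mean on the HFD, with a median log2 difference of -0.23, beside 0.01 over all genes. With 1 library left out at a time, the median ran from -0.30 (without Cyp2b-null HFD library 2) to -0.09 (without Cyp2b-null ND library 3). None was called, and 0% of all genes were, while 6 members had an unadjusted p below 0.05. Groups were apart with HFD higher for 2 members (6.18% of genes), Srebf1 and Dgat2, and with HFD lower for 4 (5.05% of genes), Acaca, Me1, Lpin1 and Lpin2. This comparison shares its Cyp2b-null ND libraries with the genotype comparison on ND, so the same high libraries enter both. Me1 had 84.1, 97.6 and 97.7 CPM on the HFD, against 166, 191 and 157 CPM on ND, with every HFD library far below every ND library. The log2 difference was -0.88 ± 0.17 (SE), interval -1.24 to -0.52, adjusted p 0.683 in edgeR. DESeq2 called Me1 here too, with an adjusted p of 0.000665. Over the table it called more genes than edgeR here as well. The term for the 2 sides into which the female libraries fall on their first principal component left 0 members called.

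Lpin2 had 145, 191 and 133 CPM in Cyp2b-null HFD livers, against 224, 409 and 335 CPM in Cyp2b-null ND livers, a log2 difference of -1.05 ± 0.27 (SE). Without the filter on low counts it was called, with an adjusted p of 0.0182. Such fits also raised calls over whole tables, as given at the end. Lpin1, the lipin that also acts as a coactivator, had 37.6, 54.6 and 33.9 CPM on the HFD, against 65.1, 153 and 97.5 CPM on ND, a log2 difference of -1.32 ± 0.47 (SE). Both lipins thus had all HFD libraries below all ND libraries. Acaca had 71.2, 80.9 and 69.8 CPM on the HFD, against 96.8, 106 and 115 CPM on ND, a log2 difference of -0.52 ± 0.19 (SE). Srebf1 (chr11:60199089-60222581, reverse strand) went the other way, with 385, 345 and 329 CPM in Cyp2b-null HFD livers, against 244, 218 and 207 CPM in Cyp2b-null ND livers. Its log2 difference was 0.66 ± 0.24 (SE), and Dgat2 was the other member apart with HFD higher, at 639, 576 and 591 CPM, against 488, 437 and 493 CPM (0.35 ± 0.20). Fasn had 471, 420 and 427 CPM on the HFD, against 831, 404 and 821 CPM on ND, so the high-fat libraries were close together and the chow libraries were not. The Fasn log2 difference was -0.64 (interval -1.29 to 0.01).

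Markers of other cells and other lists also differed between Cyp2b-null HFD and Cyp2b-null ND females. All 10 Kupffer cell markers had the higher mean on the HFD (median 0.78, 5 with an unadjusted p below 0.05), and they summed to 422 to 728 CPM on the HFD, against 209 to 381 CPM on ND. The hepatocyte markers had the lower mean for 6 of 7 (median -0.35), and summed to 62943 to 90209 CPM on the HFD, against 78214 to 117089 CPM on ND. Of the cholesterol genes 21 of 23, and of the fasting and refeeding genes 8 of 9 tested, had the lower mean on the HFD. None of these genes was called, and their part in the levels of the members was not tested.

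The difference between the diet effects of the 2 female genotypes was tested as an interaction. It was below 0 for 22 of 29 members, with a median of -0.20, beside 0.01 over all genes. Leaving out each library in turn gave medians from -0.41 (without WT ND library 1) to -0.12 (without WT ND library 3). No member was called, and 0% of genes were, while 2 members had an unadjusted p below 0.05. The 4 members with the smallest p-values were Me1 (-0.84 ± 0.24), Lpin2 (-1.08 ± 0.38), Mid1ip1 (0.86 ± 0.41) and Pnpla3 (-0.97 ± 0.50), each as a log2 difference ± SE with an adjusted p of 1.0. Fasn stood at -0.68 (interval -1.59 to 0.24).

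In males these genes differed within a group. WT HFD library 2 was the highest of its 3 libraries for 22 of 30 members tested, where it was the highest for 34.0% of all genes. For 10 members it held over 2 times the level of both other WT HFD libraries, as it did for 2.19% of all genes. Fasn had 339, 1321 and 220 CPM in WT HFD libraries 1, 2 and 3, against 1148, 1061 and 1048 CPM in the WT ND libraries. Library 2 thus lay above every WT ND library while its partners lay far below. Acly, the ATP citrate lyase that makes cytosolic acetyl-CoA, had 198, 739 and 134 CPM in WT HFD livers, against 534, 501 and 392 CPM in WT ND livers. Acacb, the carboxylase at the mitochondrial surface (chr5:114146535-114250761, forward strand), had 24.4, 232 and 50.8 CPM, against 154, 169 and 154 CPM. Each shows the same order.

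The pattern reached triglyceride assembly but not all of it. Gpam, which adds the first acyl chain to glycerol 3-phosphate, had 200, 608 and 212 CPM in WT HFD libraries 1, 2 and 3, against 327, 381 and 272 CPM in WT ND livers. Acsl5, an acyl-CoA synthetase, had 334, 696 and 248 CPM, against 544, 557 and 465 CPM. Dgat2 had 627, 436 and 532 CPM in WT HFD livers, against 407, 450 and 474 CPM in WT ND livers, and here library 2 was the lowest of its group. Gpd1 had 561, 392 and 295 CPM, against 601, 425 and 489 CPM. Library 2 was not the highest for Gpd1, Agpat3, Dgat1, Dgat2, Lpin3, Mcat, Mlxipl or Taldo1. Summed over the members, levels were 5260, 9887 and 5260 CPM in WT HFD livers, against 8045, 7979 and 8235 CPM in WT ND livers.

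Other values moved with that library. Scd1, the desaturase that makes oleate and is no member, had 1466, 10324 and 2345 CPM in the WT HFD libraries, against 9379, 10164 and 7921 CPM in the WT ND libraries. The summed cholesterol synthesis genes stood at 3610, 6773 and 3045 CPM. The 6 cholangiocyte markers, all with counts, summed to 30.9, 89.0 and 37.4 CPM, against 36.7 to 51.1 CPM in WT ND livers. The 7 adipocyte markers summed to 27.6, 53.4 and 30.3 CPM, against 7.25 to 11.8 CPM, with the adipocyte hormone Adipoq at 0.0753, 0.681 and 0 CPM. Igfbp1 stood at 48.0, 468 and 163 CPM, against 140 to 233 CPM. The 7 hepatocyte markers summed to 91654, 99996 and 82282 CPM, against 107036 to 138164 CPM in WT ND livers, so all 3 WT HFD libraries lay lower. In bulk liver RNA, a different number of cells of a type and a different RNA content per cell cannot be told apart, and the part of these values in the levels of the members was not tested.

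Within-group spread made this visible. Over the 25 members at 10 CPM or more, the median coefficient of variation was 35.9% in male WT HFD livers, against 12.9% in male WT ND livers. All genes at that level had 17.6% and 9.5%. In labelled Cyp2b-null HFD males it was 19.7% (14.1% over all genes) and in labelled Cyp2b-null ND males 46.6% (37.6% over all genes), a group that holds the library with the high mitochondrial share. In the 4 female groups the members' medians ran from 19.1 to 25.8%, against 18.4 to 22.3% over all genes. In female WT ND livers the members lay below all genes, at 19.1%, against 22.3%. The spread was not particular to this set. The cholesterol synthesis genes had a higher median than the members in every group, with 51.6% in male WT HFD and 19.5% in male WT ND livers. The fatty acid oxidation genes had 16.5% and 12.4% there. The highest single value in male WT HFD livers was that of Acacb, 110%.

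**Figure D3:**
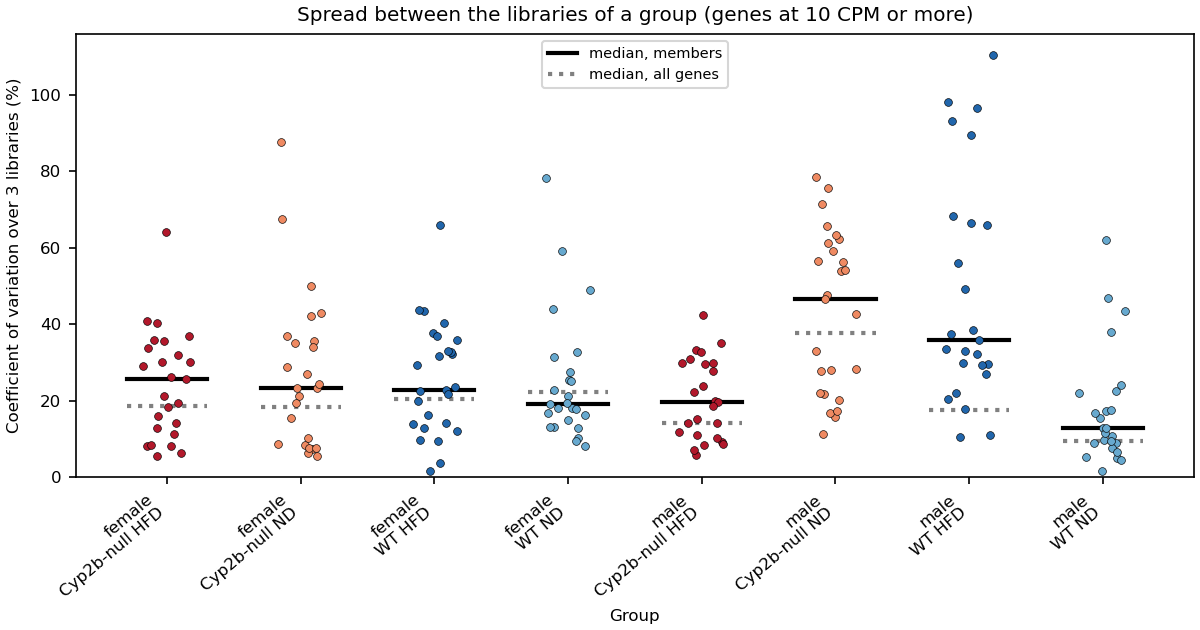
Coefficient of variation over the 3 libraries of each group for each member at 10 CPM or more (points), with the median over the members (black) and over all genes at that level (dotted). In male WT HFD livers the members' median is 35.9%, against 17.6% over all genes. The cholesterol synthesis genes, not plotted, had 51.6% there.

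The genotype comparison on ND in males had 9 members with a higher and 21 with a lower mean in labelled Cyp2b-null than in WT livers. The median log2 difference was -0.32, beside 0.06 over all 14873 genes. Fits without 1 library gave medians from -0.52 (without labelled Cyp2b-null ND library 2) to -0.29 (without WT ND library 1). No member was called, where 0.0134% of genes were, while 6 had an unadjusted p below 0.05. The groups were apart with labelled Cyp2b-null higher for 2 members (10.3% of genes), Acaca and Lpin2, and lower for 10 (12.5% of genes). These 10 were Fasn, Acacb, Acly, Mid1ip1, Agpat2, Pgd, Taldo1, Gpd1, Acsl5 and Mcat. Without labelled Cyp2b-null ND library 1 the split was 10 higher and 20 lower, with a median of -0.35, 0 members called where 0.0462% of genes were, 3 apart higher (20.4% of genes) and 13 apart lower (19.7% of genes).

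Agpat2, which adds the second acyl chain (chr2:26593057-26604417, reverse strand), had 90.8, 153 and 87.9 CPM in labelled Cyp2b-null ND livers, against 231, 213 and 193 CPM in WT ND livers. Library 2 was the nearest to WT, and the log2 difference was -0.94 ± 0.31 (SE), interval -1.60 to -0.27, adjusted p 0.213. Without that library 2 it was -1.28, with an adjusted p of 0.0481 in edgeR. That fit called 1 of 30 members and 724 of 15194 genes, and it kept library 1, with 32% mitochondrial counts. Lpin2 was higher, with 507, 434 and 736 CPM in labelled Cyp2b-null ND livers, against 381, 186 and 235 CPM in WT ND livers, a log2 difference of 1.06 ± 0.37 (SE). Acaca had 166, 118 and 120 CPM, against 110, 96.3 and 91.2 CPM, a log2 difference of 0.45 ± 0.26 (SE). Both had every labelled Cyp2b-null library above every WT library. Fasn had 795, 938 and 599 CPM in labelled Cyp2b-null ND livers, against 1148, 1061 and 1048 CPM in WT ND livers. All 3 lay below WT, at a log2 difference of -0.48 (interval -1.61 to 0.65). Without labelled Cyp2b-null ND library 1, Agpat2 stood at -0.82, Lpin2 at 1.13, Acaca at 0.27 and Fasn at -0.50.

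The library with the high mitochondrial share set some of these ranges. Gpd1 had 94.9, 374 and 292 CPM in labelled Cyp2b-null ND libraries 1, 2 and 3, against 601, 425 and 489 CPM in WT ND livers, a log2 difference of -0.99 ± 0.42 (SE). Acacb had 36.8, 147 and 72.9 CPM, against 154, 169 and 154 CPM (-0.89 ± 0.71). Taldo1, transaldolase, had 53.8, 92.0 and 63.9 CPM, against 136, 118 and 109 CPM (-0.79 ± 0.30). Library 1 was the lowest of the 6 in all 3 genes. Without it, the log2 differences were -0.60 for Gpd1, -0.53 for Acacb and -0.63 for Taldo1. Pgd stood at 2.55 CPM on average, against 4.81 CPM (-0.89 ± 0.36, and -0.73 without library 1). Mlxipl was at 2716 CPM in library 1 alone, against 570 and 1127 CPM in its partners and 699 to 907 CPM in WT ND livers. Dbp had 201 to 709 CPM in labelled Cyp2b-null ND livers, against 34.4 to 143 CPM in WT ND livers, and the summed hepatocyte markers 41057 to 80651 CPM, against 107036 to 138164 CPM. The adipocyte markers summed to 78.0 CPM in library 1, with Adipoq at 2.81 CPM, and to at most 13.9 CPM in its partners. Their part was not tested.

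On the HFD, Srebf1 was the male member with the smallest p. It had 483, 490 and 718 CPM in labelled Cyp2b-null HFD livers, against 228, 394 and 205 CPM in WT HFD livers. All 3 labelled Cyp2b-null libraries lay above, and the log2 difference was 1.03 ± 0.31 (SE), interval 0.35 to 1.71, with an adjusted p of 1.0. Of 30 members 17 had a higher and 13 a lower mean, with a median of 0.04, beside -0.01 over all genes. As each library was left out, the median ran from -0.14 (without WT HFD library 3) to 0.30 (without WT HFD library 2). None was called, and 0% of genes were, while 2 members had an unadjusted p below 0.05. The groups were apart with labelled Cyp2b-null higher for 3 members (4.67% of genes), Srebf1, Thrsp and Khk, and lower for 2 (3.6% of genes), Agpat3 and Aacs.

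Khk had 427, 565 and 525 CPM in labelled Cyp2b-null HFD livers, against 344, 367 and 297 CPM in WT HFD livers, a log2 difference of 0.59 ± 0.23 (SE). Thrsp had 1376, 1492 and 1330 CPM, against 175, 1231 and 335 CPM (1.27 ± 0.63), so WT HFD library 2 lay just below the other group. Mid1ip1 had 118, 58.6 and 119 CPM, against 54.4, 88.9 and 43.0 CPM (0.67 ± 0.34), and overlapped. Aacs had 123, 124 and 103 CPM in labelled Cyp2b-null HFD livers, against 145, 308 and 228 CPM in WT HFD livers (-0.96 ± 0.50). Agpat3, a further acyltransferase of the pathway, differed by -0.26 ± 0.23. Fasn had 888, 1118 and 1202 CPM, against 339, 1321 and 220 CPM, a log2 difference of 0.77 (interval -0.36 to 1.91).

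These counts turned on WT HFD library 2, which was singled out by the levels of these same members. Fits without it show its weight and are no separate support for a difference. It did not stand apart by its 7.76% mitochondrial counts or its median rank correlation of 0.970. Without it, 23 members had a higher and 7 a lower mean in labelled Cyp2b-null HFD livers, the median was 0.30, 12 members were apart with labelled Cyp2b-null higher (9.94% of genes) and 2 lower (8.89% of genes). Still 0 members were called, and 0% of genes were. Fasn then differed by 1.93 ± 0.34 (SE) and Acly by 1.43 ± 0.47, each with an adjusted p of 1.0. Acacb stood at 0.85 ± 0.57 without the library, against -0.59 ± 0.70 with it, and Pnpla3 at 1.13 ± 0.57, against -0.99 ± 0.83. The remaining pair of WT HFD libraries is too few to give their own spread, and the fit assumes that they vary like the other groups.

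Fat feeding in WT males had 8 members with a higher and 22 with a lower mean on the HFD, with a median log2 difference of -0.33, beside 0.02 over all genes, and -0.19 without WT HFD library 1 or library 3. None was called, and 0% of genes were, while 2 members had an unadjusted p below 0.05. One member was apart with HFD higher (12.9% of genes), Mogat1, and 5 were apart with HFD lower (10.1% of genes), Agpat2, Lpin3, Taldo1, Tkt and Khk. All 4 regulators, all 5 members grouped under NADPH supply (Me1, G6pdx, Pgd, Taldo1 and Tkt) and all 4 tested members grouped under fatty acid synthesis had the lower mean on the HFD. The other roles were mixed, with 6 of 10 higher in triglyceride assembly and 1 of 4 in acetyl-CoA supply. Acyl-CoA and glycerol supply had 1 of 3 higher. Mogat1 had 0.678, 0.973 and 0.679 CPM in WT HFD livers, against 0.346, 0.108 and 0.342 CPM in WT ND livers, a log2 difference of 1.46 ± 0.57 (SE) at a level of a few counts. Lpin2 had 330, 667 and 506 CPM on the HFD, against 381, 186 and 235 CPM on ND, with overlap (0.91 ± 0.37). Taldo1 had 97.3, 86.1 and 55.7 CPM, against 136, 118 and 109 CPM (-0.60 ± 0.30). Tkt had 108, 125 and 79.5 CPM, against 170, 140 and 135 CPM (-0.51 ± 0.26), and Agpat2 178, 183 and 102 CPM, against 231, 213 and 193 CPM (-0.46 ± 0.30). In these 3 the groups were apart with library 3 the lowest on the HFD. The Fasn log2 difference was -0.79 (interval -1.93 to 0.34). Of the hepatocyte markers 6 of 7 had the lower mean on the HFD (median -0.37), 4 of them apart, and their part was not tested.

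WT HFD library 2 was chosen for its high levels of many of these members, so leaving it out lowers their HFD means by construction. Without it, 5 members had a higher and 25 a lower mean on the HFD, and the median was -0.59. Of 30 members, 20 were apart with HFD lower (14.7% of genes), against 2 higher (18.1% of genes). Still 0 members were called, where 0.00652% of genes were, while 11 members had an unadjusted p below 0.05. Fasn then stood at -1.96 ± 0.34 (SE), adjusted p 0.283, and Acly at -1.51 ± 0.47, adjusted p 0.686. Acacb stood at -2.08 ± 0.60 and Pnpla3 at -2.5 ± 0.58. The diet difference of Fasn, Acly, Acacb, Acss2, Me1 and Pnpla3 in WT males moved by more than its standard error in the fit of all libraries when that library was left out. The same held for Thrsp, Gpam, Acsl5, Acsl3, Pgd, Srebf1 and Mid1ip1. The diet difference of Acaca moved by less, and stood at -0.59 without the library, against -0.37 with it. The plot of each member with and without it shows how far each point lies from the diagonal.

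**Figure D4:**
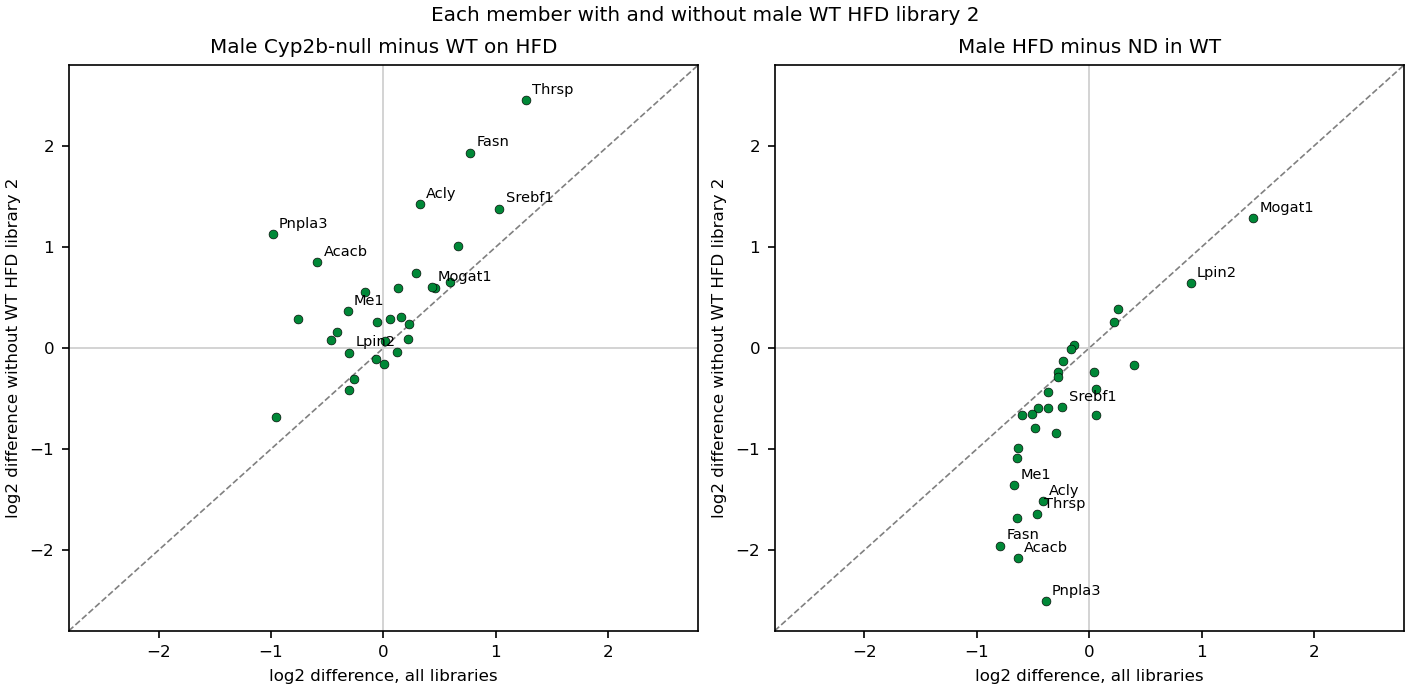
Log2 difference of each of 30 members in males with all libraries (x) and without WT HFD library 2 (y), for labelled Cyp2b-null minus WT on HFD (left) and HFD minus ND in WT (right). The dashed diagonal marks equal values. The library left out was chosen by the levels of these same members. Fasn lies at 0.77 with all libraries and 1.93 without on the left, and at -0.79 and -1.96 on the right.

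In males labelled Cyp2b-null, 18 members had a higher and 12 a lower mean on the HFD than on ND, with a median of 0.21, beside -0.01 over all genes. With 1 library left out at a time, the median ran from 0.00 (without labelled Cyp2b-null ND library 1) to 0.40 (without labelled Cyp2b-null ND library 2). None was called, and 0% of genes were, while 4 members had an unadjusted p below 0.05. Groups were apart with HFD higher for 3 members (6.37% of genes), Agpat2, Dgat2 and Mogat1, and lower for 1 (5.72% of genes), Acaca. Agpat2 had 182, 188 and 267 CPM on the HFD, against 90.8, 153 and 87.9 CPM on ND (0.94 ± 0.31, adjusted p 0.434). Acaca had 72.8, 76.5 and 90.9 CPM, against 166, 118 and 120 CPM (-0.75 ± 0.26). Dgat2 had 586, 584 and 683 CPM, against 301, 495 and 526 CPM (0.49 ± 0.26). In each of the 3 every HFD library lay on one side of every ND library. Mogat1 (1.21 ± 0.52) rested on few counts and Mid1ip1 (0.76 ± 0.34) overlapped. Fasn had 888, 1118 and 1202 CPM, against 795, 938 and 599 CPM, a difference of 0.46 (interval -0.67 to 1.59). Without labelled Cyp2b-null ND library 1 the split was 15 and 15, the median 0.00, with 0 members called where 0.0859% of genes were, and 6 members were apart higher (9.88% of genes) and 2 lower (10% of genes). Agpat2 then stood at 0.82, Acaca at -0.58, Dgat2 at 0.28, Mogat1 at 1.16, Mid1ip1 at 0.70 and Fasn at 0.48.

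The male interaction, the diet effect in labelled Cyp2b-null minus that in WT mice, was above 0 for 22 of 30 members, with a median of 0.28, beside -0.05 over all genes. Leaving out each library in turn gave medians from 0.10 (without WT HFD library 3) to 0.85 (without WT HFD library 2). No member was called, and 0% of genes were, while 5 members had an unadjusted p below 0.05. The 4 with the smallest p-values were Agpat2 (1.40 ± 0.43), Mid1ip1 (1.40 ± 0.48), Lpin2 (-1.37 ± 0.53) and Khk (0.76 ± 0.33), as log2 differences ± SE, each with an adjusted p of 0.891. Fasn stood at 1.25 (interval -0.35 to 2.86). Without labelled Cyp2b-null ND library 1 the median was 0.17, with Agpat2 at 1.28, Mid1ip1 at 1.34, Lpin2 at -1.43, Khk at 0.91 and Fasn at 1.27.

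**Figure D5:**
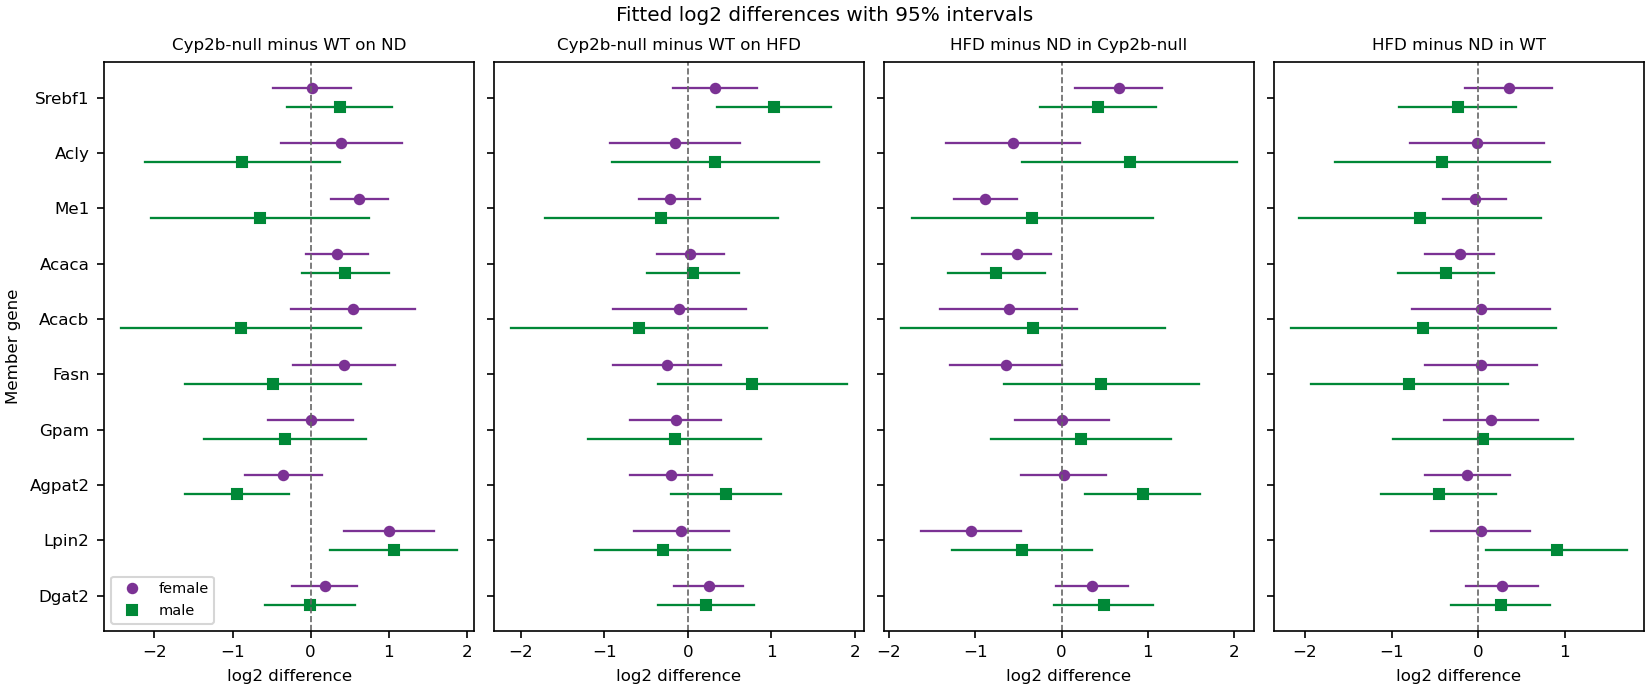
Fitted log2 difference (points) with its 95% interval (lines) for 10 members in 4 comparisons, females as purple circles and males as green squares, 3 libraries per group. Intervals are wider in males for Fasn, Acly, Acacb and Me1, and no member passed the test in any panel.

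The sexes were compared by testing the female minus the male effect in 1 fit of all 24 libraries and 15043 genes, where sex and library chemistry cannot be told apart. The male genotype is that of the label, which the targeted genes did not settle. A female minus male genotype effect may therefore not set like genotypes side by side. For the genotype effect on ND, 23 of 29 members were above 0, with a median of 0.51, beside -0.07 over all genes. No member was called, where 0.0332% of genes were, the lowest adjusted p was 0.355, and 3 members had an unadjusted p below 0.05. For the genotype effect on the HFD, 15 members were above and 14 below 0, with 0 called (0.0133% of genes) and a median of 0.01, which was -0.34 without male WT HFD library 2. For the diet effect in WT mice, 22 were above and 7 below, with 0 called (0.00665% of genes). For the diet effect in Cyp2b-null females and labelled Cyp2b-null males, 7 were above and 22 below, with 0 called (0% of genes). The female and male effects on these genes were thus not shown to differ at this depth and spread.

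The rest of the pathway was read from 41 other genes, of which 36 were tested in females and 39 in males, and none was called in any comparison. In female Cyp2b-null ND against WT ND livers 25 of 36 had the higher mean, among them Scd1 with 8700, 5088 and 6086 CPM, against 4334, 4083 and 4325 CPM. In female Cyp2b-null mice Scd1 had 2359, 2185 and 2730 CPM on the HFD, against the same 8700, 5088 and 6086 CPM on ND. That log2 difference, -1.45 ± 0.22 (SE), had an adjusted p of 0.0757. Insig2, which holds sterol regulators in the endoplasmic reticulum, had 86.1, 78.2 and 61.1 CPM in female Cyp2b-null HFD livers, against 102, 133 and 140 CPM in WT HFD livers (-0.74 ± 0.20, adjusted p 1.0). Ppara, the receptor that drives fat oxidation, averaged 533 CPM in labelled Cyp2b-null ND males, against 235 CPM in WT ND males (1.18 ± 0.24, adjusted p 0.165). It averaged 523 CPM in WT HFD males, against the same WT ND libraries (1.15 ± 0.24, adjusted p 0.255). The fatty acid oxidation genes, 25 in all, had the higher mean on the HFD for 23 in WT females and 22 in WT males, where the synthesis members stood at 16 of 29 and 8 of 30. In Cyp2b-null females 17 of 25 oxidation genes and 11 of 29 members were higher on the HFD. In labelled Cyp2b-null males both lists leaned higher, with 23 of 25 and 18 of 30.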

How the data were processed

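Mouse liver RNA was sequenced in 24 libraries, 3 per group. The authors deposited raw counts per gene symbol, 1 table per sex, with no normalization. Per the submitters' processing notes, FastQC, Trimmomatic, GSNAP, Subread and edgeR and build GRCm38.p5 were used; tool settings and strand use were not given in the sources used here, so overlapping and antisense genes are uncertain. Groups follow the sample titles. Rows of a repeated symbol were summed in the male table (1801 symbols, among them Slc25a1, Pgd, Acsl3 and Mogat1); 25 symbols turned into dates were not tested.

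The female and the male table had a fit each in edgeR 4.0.16 under R 4.3.3: 1 term per group over 12 libraries, TMM scaling, filterByExpr, robust quasi-likelihood test, Benjamini-Hochberg over 11830 genes in females and 14873 in males, called at an adjusted p below 0.05. A joint fit of 24 libraries (15043 genes) tested the female minus male effect. Common dispersions had square roots of 0.269 in females and 0.340 in males. Intervals are 95%. Lengths and positions are from GENCODE M21 (GRCm38). Fits were tested on simulated data. Libraries of a group all differed by more than counting noise, the closest pair with a chi-square of 5.57 per degree of freedom.

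The members, the gene lists and the rule for naming were chosen with earlier results of these data known. In each comparison the rule named called members, the 4 with the smallest p, and up to 3 each way whose groups were apart with a mean log2 CPM of at least 1. Fasn was given throughout. Other names, such as Tkt in females and the members of role counts, were chosen after their values were seen. The alternatives tried were DESeq2 1.42.0, RLE scaling, all genes with a count, a fit of only the compared groups, the first row of a repeated symbol, a term for female library sides, the replicate number as a block, and leaving out each library. Same-numbered libraries deviated together (r above 0.1 in all 3 pairs) between WT HFD and WT ND, with r of 0.139 to 0.564 in females and 0.110 to 0.127 in males. The labels give no pairing and the main fits hold no pairing term, so the replicate number was tried as a block only.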

Additional observations from a re-analysis of the deposited data

How the results depend on the processing

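The count of members called was 0 in all 14 comparisons and stayed at 0 in 184 of 190 alternatives. It was 1 under DESeq2 in females for Cyp2b-null minus WT on ND and for HFD minus ND in Cyp2b-null mice (Me1 in both). It was 1 without the filter on low counts in those 2 comparisons (Lpin2) and in the female minus male genotype effect on ND (Aacs). In each of these fits more genes were called over the whole table too, with counts or ranges below. Leaving out 1 library gave 0 to 1 members called in males for labelled Cyp2b-null minus WT on ND, and 0 in the other comparisons within a table. The 1 was Agpat2, without labelled Cyp2b-null ND library 2, where 724 of 15194 genes were called. The cause was not tested. With the replicate number as a block, 0 members were called in each of the 10 comparisons within a table, so the block changed no call of a member. For HFD minus ND in WT females it gave 0 genes over the table, against 2.

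Of 780 alternative values of named members, 770 kept direction and side of the threshold, 5 passed it and 5 turned sign, all 5 for Fasn in females. Fasn for HFD minus ND in WT was -0.0025 with the term for library sides and ran from -0.33 to 0.26 over the fits without 1 library. Fasn for Cyp2b-null minus WT on the HFD ran from -0.47 to 0.12 in such fits. Genes called over a whole table moved by over 1.5 times in 74 of 190 alternatives. For labelled Cyp2b-null minus WT on ND in males they went from 2 to 427 with DESeq2. Without labelled Cyp2b-null ND library 2 they went to 724. For Cyp2b-null minus WT on ND in females they went from 15 of 11830 to 76 with DESeq2, which called Me1. Without the filter, where Lpin2 was called, they went to 121. DESeq2 called 3 to 112 genes in the 7 other comparisons within a table where its count moved so far, and the fit without the filter up to 215 (female minus male genotype effect on ND, against 5). The female totals of 2005120 to 2661836 counts limited members of a few CPM, such as Pnpla3, Pgd and G6pdx.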
